A study of Mus musculus with 16 samples.

Results

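Branched-chain amino acid (BCAA) catabolism was examined in skeletal muscle through 10 genes chosen by symbol, *Bcat2*, *Bckdha*, *Bckdhb*, *Dbt*, *Bckdk*, *Ppm1k*, *Ivd*, *Mccc1*, *Mccc2* and *Hibch*, and all 10 were found among the 55471 genes of the deposited count table. Bulk RNA-seq was performed on muscle of 16 male mice on a C57BL/6J background, 10 heterozygous for the *Npr1*tm1Gar allele (Npr1+/-) and 6 littermates without it (Npr1+/+). By the study's methods the mice, controls included, were 12 weeks old and were given a high-fat diet (HFD, 60% kcal from lipids) for up to 12 weeks. The allele is present in the whole body, the muscle sampled is not named, and the mice came from 4 cages that each held both genotypes. The study asked what partial loss of GCA, the atrial natriuretic peptide receptor encoded by *Npr1*, does to muscle of obese mice.

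Leucine, isoleucine and valine are first transaminated in mitochondria by BCAT2, the isoform typical of muscle, which yields branched-chain keto acids. The branched-chain keto acid dehydrogenase (BCKDH) complex then decarboxylates these keto acids in the irreversible, committed step. The kinase BCKDK phosphorylates and inactivates the complex, and the phosphatase PPM1K reverses this. Past the complex the carbon skeletons take separate routes, with IVD and methylcrotonyl-CoA carboxylase on the leucine route and HIBCH on the valine route. Raised circulating BCAA are a known companion of insulin resistance.

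Library totals ranged from 15273472 to 59682677 counts, and the smallest count of any member in any library was 100, for *Ppm1k*. The 6 defining skeletal muscle genes were detected in every library. The mean CPM, a count divided by the TMM-scaled library size, of *Npr1* was 13.6 ± 3.87 (SD, n = 10) under the Npr1+/- label and 12.2 ± 1.05 (SD, n = 6) under Npr1+/+. The fitted log2 difference was 0.09 (standard error 0.20, 95% interval 0.794 to 1.43 as a fold). This interval lies above the 1 to 2 ratio that loss of the transcript of 1 allele would give, so the *Npr1* counts go against the heterozygous label. Whether the modified allele still yields counted reads was not tested. Below, Npr1+/- and Npr1+/+ mean libraries labelled so, and every direction is between labels. Libraries also differed in how long and short genes were represented. This was measured as a length slope, the change in log2 CPM relative to the mean of all libraries for each unit of log2 gene length, over 12218 genes with at least 10 counts in every mouse. The slope ran from -0.220 to 0.362 in the Npr1+/- libraries and from -0.130 to 0.0527 in the Npr1+/+ libraries, with replicates 5, 6 and 7 labelled Npr1+/- at the top (0.209, 0.267 and 0.362). It had an absolute r of 0.978 with the first principal component, which held 54.9% of the variance of these genes. Genotype and body weight results and the main correlations are also given with it taken into account.

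Levels were compared between genes per kilobase of the deposited gene length (RPKM, from TMM-normalized CPM). *Bckdk* was the most abundant member at 96.9 ± 17.4 RPKM (SD, n = 16), followed by *Bckdha*, the E1 alpha subunit of the complex, at 57.9 ± 9.01 RPKM. *Bckdk* exceeded *Bckdha* in 16 of 16 mice. *Ivd* came next at 26.5 ± 5.04 RPKM. Below it, *Bcat2* (17.2 ± 3.21 RPKM), *Mccc2* (17.1 ± 1.58 RPKM) and *Bckdhb*, the E1 beta subunit (14.7 ± 1.81 RPKM), lay close together. The order of *Bcat2* and *Mccc2* held in only 7 of 16 mice, so the levels of these neighbours did not differ beyond their spread. *Hibch* was at 11.6 ± 2.52 RPKM, *Dbt*, the E2 core subunit, at 5.39 ± 1.98 RPKM and *Mccc1* at 3.31 ± 0.633 RPKM. *Ppm1k* was lowest at 2.07 ± 0.643 RPKM. The kinase message therefore exceeded the phosphatase message in every mouse, with a ratio per length of 21.5 to 124. Subunits of one enzyme were not equally represented, with a ratio of *Bckdha* to *Bckdhb* between 3.09 and 7.07 and of *Mccc1* to *Mccc2* between 0.150 and 0.241. The deposited length sums all exons of a gene, 10952 bases for *Mccc1* against 2802 for *Mccc2*, which lowers the value of genes with long or alternative exons.

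**Figure D1:**
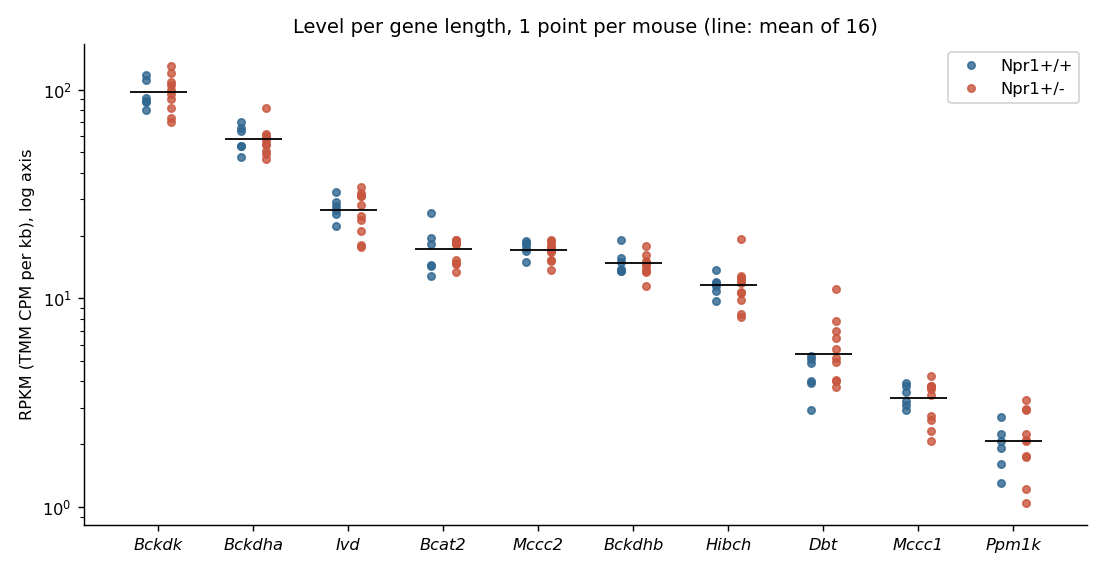
Level of the 10 genes per gene length (RPKM, log axis), 1 point per mouse, Npr1+/+ in blue and Npr1+/- in red, with a line at the mean of all 16 mice. *Bckdk* is highest at 96.9 RPKM and *Ppm1k* lowest at 2.07 RPKM. The ranges of the labels overlap for every gene, and for *Dbt* the upper Npr1+/- points lie above all Npr1+/+ points.

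No difference of a member between the genotype labels was detected. With cage and body weight as covariates, 0 of the 10 genes had an adjusted p under 0.05 in edgeR, against 0 of 14331 genes tested (0%), and 0 of 10 had an unadjusted p under 0.05, against 1.05% of all genes (0.544% higher and 0.509% lower in Npr1+/-). This 1.05% lies below the share of 0.05 that the threshold gives when no gene differs. The label test thus called few genes in this fit, and a missing call does not show equal levels. In bulk muscle, fewer cells of a type and less RNA per cell cannot be told apart. Point estimates were below 0 for 7 members and above 0 for 3, with a median log2 fold change of -0.09, beside 51.6% of all tested genes below 0 and a median of -0.01. The adjusted p of every member was 0.999994 (edgeR, Benjamini-Hochberg over all genes). The CPM ranges of the labels overlapped for all 10 members, as they did for nearly all genes (0.00698% apart). With the length slope as a further covariate every member kept the sign of its estimate and 0 of 10 passed after adjustment. In that fit 1 of 10 had an unadjusted p under 0.05, against 2.03% of all genes. This was *Ivd*, with a log2 difference of -0.27 (standard error 0.12, adjusted p = 0.999919 in edgeR).

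*Bcat2*, the entry step, lies on chromosome 7 (GRCm38) from 45570153 to 45589711. Its CPM ran from 52.4 to 74.6 in Npr1+/- mice (median 71.0) and from 50.1 to 99.7 in Npr1+/+ mice (median 63.9). The Npr1+/- range lay inside the Npr1+/+ range, where replicate 4 was highest and replicate 3 lowest. The log2 fold change was -0.23 (standard error 0.16), with a 95% interval of 0.678 to 1.08 as a fold. It was -0.050 without replicate 4 labelled Npr1+/+ and -0.038 on the label alone.

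The BCKDH subunits followed no shared direction. *Bckdha* (chromosome 7, 25629946 to 25658981) ranged from 88.2 to 154 CPM in Npr1+/- mice (median 106) and from 89.9 to 132 in Npr1+/+ mice (median 111). Its log2 fold change of 0.01 (standard error 0.16, 95% interval 0.801 to 1.27 as a fold) was the nearest to 0, and its sign changed under 5 other settings and when any of 6 mice was left out. *Bckdhb* (chromosome 9, 83925145 to 84124239) ranged from 20.8 to 32.1 CPM in Npr1+/- mice (median 26.2) and from 24.4 to 34.3 in Npr1+/+ mice (median 26.1). The medians were nearly equal, and the log2 fold change with covariates was -0.20 (standard error 0.14, interval 0.712 to 1.06). *Dbt* (chromosome 3, 116513070 to 116549981) was the most variable member, with a coefficient of variation of 36.8%. It ranged from 12.6 to 37.1 CPM in Npr1+/- mice (median 18.2) and from 9.80 to 17.7 in Npr1+/+ mice (median 14.97). The upper Npr1+/- mice lay above every Npr1+/+ mouse and the lower ones among them, and replicate 7 was highest. This was the lightest mouse, at 36.5 g, and also the library with the highest length slope (0.362). The log2 fold change of *Dbt* was 0.46 (standard error 0.22, adjusted p = 0.999 in edgeR) on the label alone and 0.12 (standard error 0.25, interval 0.751 to 1.57) with cage and body weight. Without replicate 4 labelled Npr1+/+ it was -0.17. *Dld*, the E3 subunit shared with other dehydrogenases, had a log2 fold change of -0.10 (standard error 0.15).

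A difference between labels was detected for neither regulator of the complex. *Bckdk* (chromosome 7, 127904082 to 127908600) ranged from 260.0 to 481 CPM in Npr1+/- mice (median 360.5) and from 295 to 433 in Npr1+/+ mice (median 331). Its log2 fold change was -0.09 (standard error 0.17, interval 0.731 to 1.20), and it was 0.059 without replicate 4 labelled Npr1+/+ and 0.026 on the label alone. *Ppm1k* (chromosome 6, 57506502 to 57535426) ranged from 6.30 to 19.7 CPM in Npr1+/- mice (median 12.6) and from 7.84 to 16.3 in Npr1+/+ mice (median 12.0). The spread under the heterozygous label reached beyond the other label at both ends. The log2 fold change was -0.12 (standard error 0.22, interval 0.659 to 1.28). Its sign turned on the label alone (0.12), with cage only (0.15) and without replicate 5 labelled Npr1+/+ (0.079), so no direction is given for it. The ratio of kinase to phosphatase message per length was 54.4 ± 32.2 (SD, n = 10) against 50.6 ± 11.4 (SD, n = 6), a difference smaller than either SD.

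On the leucine route, *Ivd*, isovaleryl-CoA dehydrogenase (chromosome 2, 118861954 to 118882909), ranged from 97.5 to 188 CPM in Npr1+/- mice (median 145) and from 122 to 178 in Npr1+/+ mice (median 149). Its log2 fold change was -0.22 (standard error 0.16, interval 0.682 to 1.09). *Mccc1*, the biotin-carrying subunit of the carboxylase (chromosome 3, 35959312 to 36000609), ranged from 22.6 to 46.6 CPM (median 39.1) against 32.1 to 42.9 CPM (median 37.1). The fitted log2 difference of *Mccc1* was -0.10 (standard error 0.18, interval 0.724 to 1.21 as a fold). For both genes the Npr1+/- mice extended below and above all Npr1+/+ mice. *Mccc2*, the other subunit (chromosome 13, 99948530 to 100015639), was the steadiest member, with a coefficient of variation of 9.25%. It ranged from 38.5 to 53.6 CPM (median 47.6) against 42.0 to 52.5 CPM (median 50.1), and its log2 fold change was -0.09 (standard error 0.13, interval 0.781 to 1.13). The fold intervals given for each gene hold the differences that these mice do not exclude.

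*Hibch*, 3-hydroxyisobutyryl-CoA hydrolase of the valine route (chromosome 1, 52844929 to 52920981), ranged from 49.2 to 116 CPM in Npr1+/- mice (median 68.5) and from 59.0 to 82.9 in Npr1+/+ mice (median 70.5). Replicate 9 labelled Npr1+/- was far above its group, whose next value was 77.2 CPM. The log2 fold change was 0.11 (standard error 0.18, interval 0.823 to 1.41), and it was -0.00 without that mouse.

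**Figure D2:**
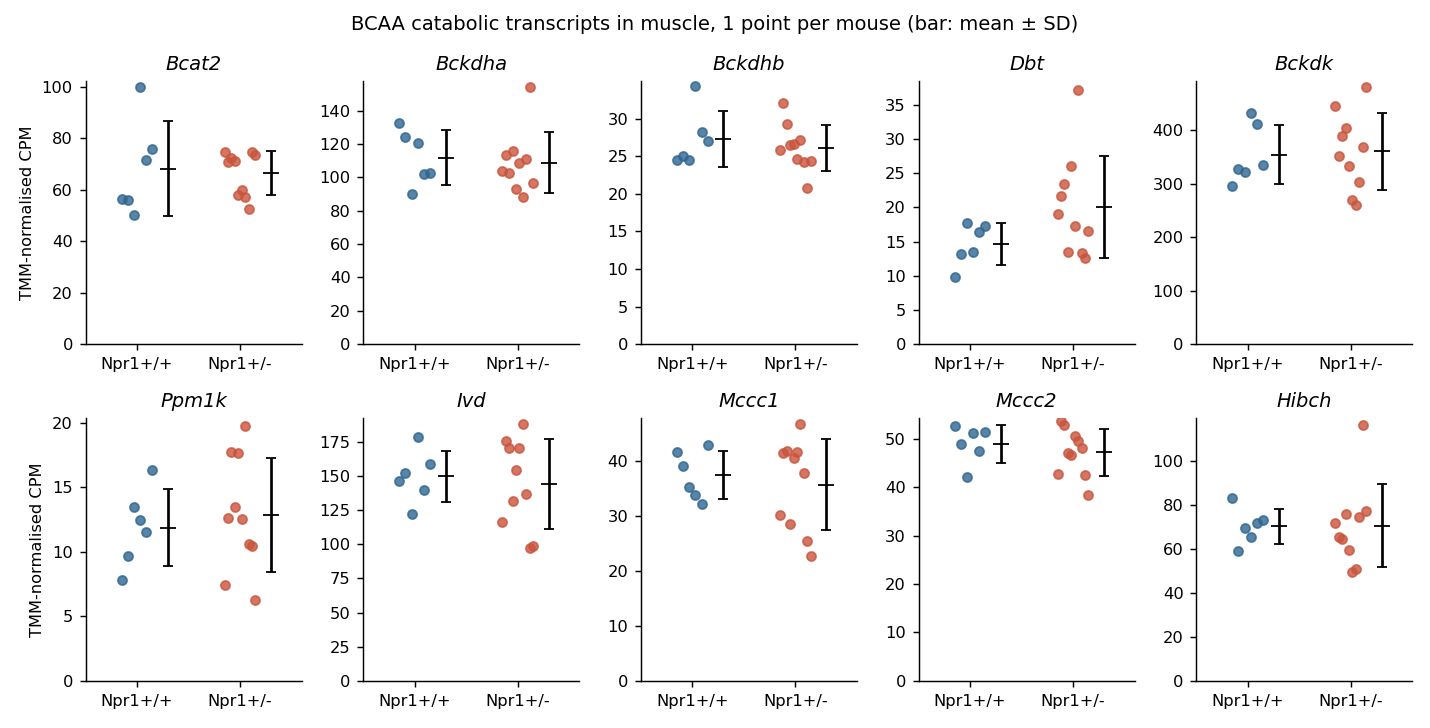
TMM-normalized CPM of the 10 genes, 1 point per mouse, Npr1+/+ (n = 6, blue) and Npr1+/- (n = 10, red), with the mean ± SD beside each group. The labels overlap in all panels, and *Dbt* shows the widest relative spread, from 9.80 to 37.1 CPM.

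The rest of the pathway was covered by 21 further genes, of which 20 passed the filter on low counts. The exception was *Bcat1*, the cytosolic transaminase, at a mean of 0.370 CPM in Npr1+/- and 0.263 CPM in Npr1+/+ mice. None of the 20 passed the test, at an adjusted or an unadjusted p under 0.05, and 18 had a log2 fold change below 0, with a median of -0.07 and a range of -0.17 to 0.02. The smallest unadjusted p-values belonged to *Acad8*, isobutyryl-CoA dehydrogenase of the valine route (log2 fold change -0.17, standard error 0.14), *Pccb*, a propionyl-CoA carboxylase subunit (-0.13, 0.13), and *Slc3a2*, the heavy chain of the cell surface amino acid transporter (-0.14, 0.16). *Slc25a44*, the mitochondrial BCAA carrier, had a log2 fold change of -0.02 (standard error 0.19). The regulators *Klf15*, a factor known to drive BCAA-degrading genes in muscle, *Ppargc1a* and *Ppara* had log2 fold changes of 0.05, -0.09 and 0.16, with an adjusted p of 0.999994 each in edgeR. For comparison, 13 of 14 citric acid cycle genes were also below 0, with a median of -0.08 and none past the test, so the small negative estimates were not shown to be particular to BCAA genes.

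Body weight was the other labelled measure. It ran from 36.5 to 48.1 g in Npr1+/- mice and from 40.5 to 54.0 g in Npr1+/+ mice. In the same fit, 8 of 10 members had a slope below 0, beside 52.7% of all genes, and 0 of 10 had an adjusted p under 0.05 (0% of all genes). At an unadjusted p under 0.05 there were 3 of 10, against 17.1% of all genes. All 3 had lower levels in heavier mice, as had 12.3% of all genes. *Dbt* had a log2 change of -0.81 per 10 g (standard error 0.31, adjusted p = 0.247 in edgeR). *Ppm1k* had one of -0.67 per 10 g (standard error 0.28, adjusted p = 0.259 in edgeR) and *Ivd* one of -0.50 (standard error 0.21, adjusted p = 0.260 in edgeR). *Hibch* had the highest slope at 0.42 per 10 g (standard error 0.23). With the length slope of each library as a further covariate, the slopes came to -0.41 for *Dbt*, -0.41 for *Ppm1k*, -0.32 for *Ivd* and 0.14 for *Hibch*, and none of these 4 had an unadjusted p under 0.05. In that fit 1 of 10 members did, against 6.59% of all genes. This was *Bcat2*, with a slope of -0.52 per 10 g (standard error 0.17, adjusted p = 0.708 in edgeR). Without replicate 3 labelled Npr1+/-, *Dbt* (-1.02 per 10 g, adjusted p = 0.0471 in edgeR) and *Hibch* (0.76 per 10 g, adjusted p = 0.0365) passed the test, as did 22.1% of all genes, which puts 2 of 10 members near the background. At an unadjusted p under 0.05 there were 3 of 10 members in that fit (*Dbt*, *Hibch* and *Ivd*), against 37.6% of all genes. Without the 3 libraries of highest length slope, *Bcat2* alone had an unadjusted p under 0.05 (-0.54 per 10 g), against 5.05% of all genes. Without cage in the fit *Dbt*, *Ppm1k* and *Ivd* did (-0.54, -0.66 and -0.44 per 10 g), against 8.21% of all genes.

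**Figure D3:**
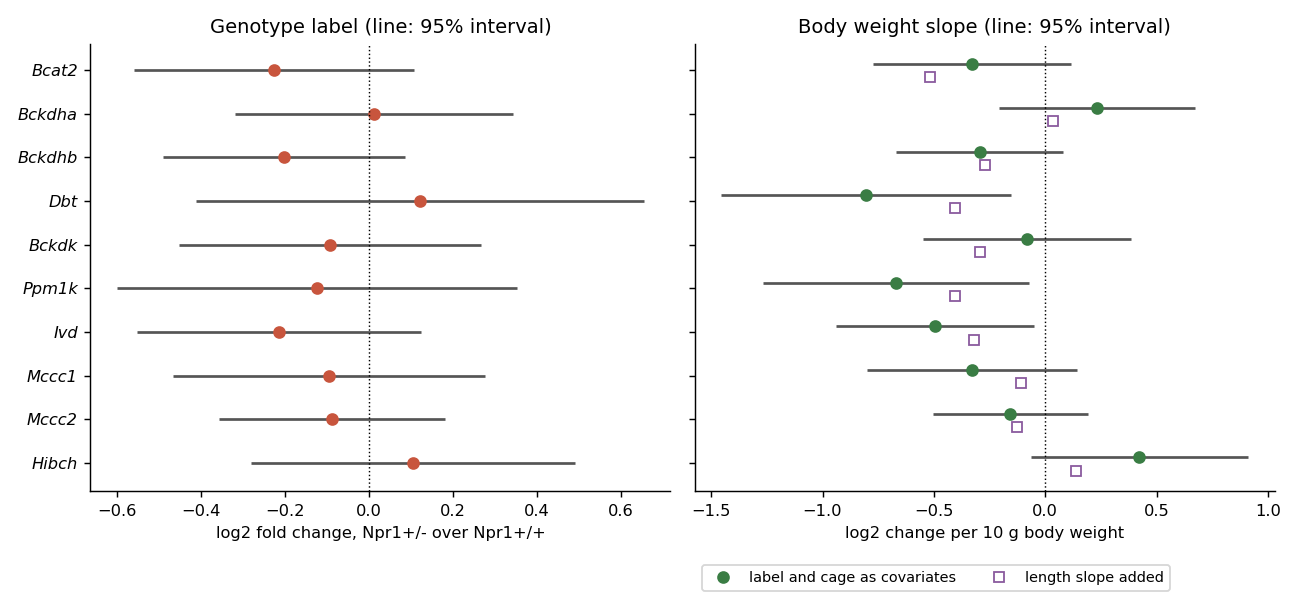
Left, log2 fold change of Npr1+/- over Npr1+/+ for each gene. Right, log2 change per 10 g body weight (green circles) and the same slope with the length slope of the library added (open squares). Lines are 95% intervals. Every interval on the left crosses 0, and on the right the slopes of *Dbt* and *Ppm1k* move from -0.81 and -0.67 to -0.41 each.

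No difference of a member between cages was detected either. There were 0 of 10 at an adjusted p under 0.05 (0.0279% of all genes) and 0 of 10 at an unadjusted p under 0.05 (7.36% of all genes). Mean CPM by cage ran from 44.2 to 50.2 for *Mccc2* and from 8.96 to 13.9 for *Ppm1k*. The lowest cage means of *Ivd* (123 CPM) and *Mccc1* (30.6 CPM) were in cage 676, those of *Bcat2* and *Hibch* in cage 675 and that of *Bckdk* in cage 677. All 4 libraries of cage 676 had a length slope below 0, from -0.213 to -0.0386. The part of the slope in these cage means was not tested. The Npr1+/+ label held only 1 mouse in cage 676 and in cage 678, and the Npr1+/- label only 1 in cage 677. Most differences within cages thus rest on a single mouse of a label. The mean log2 CPM of *Dbt* was higher in Npr1+/- mice in 3 of 4 cages, with differences of -0.02 to 0.999. So was that of *Ppm1k* (-0.54 to 0.64). The highest difference of both genes was in cage 677, from replicate 5 labelled Npr1+/-, a library with a length slope of 0.209. *Bcat2*, *Bckdha*, *Bckdk* and *Mccc2* were each lower in Npr1+/- mice in 3 of 4 cages, and no member had 1 direction in all 4.

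Over the 16 mice the 3 leucine route genes had positive correlations with each other, and *Dbt* had a negative one with *Bckdha*. Many genes were correlated in these libraries, with an absolute r over 0.6 in 21.3% of all pairs of tested genes, against which 13 of the 45 pairs of members are to be read. With the length slope removed the figures were 9.08% and 7 of 45. For 6 pairs that share an enzyme, a step or a regulatory role, r was tested against 0, not against this background, and 2 of the 6 passed. The pairs were set by role, with earlier results of these data known. *Mccc1* and *Mccc2* had a Pearson r of 0.799 over 16 mice (permutation p = 0.00056, adjusted over the 6 pairs 0.00168) and a Spearman rho of 0.744 (permutation p = 0.00144, adjusted 0.00432). Without the 2 mice farthest from the median of *Mccc1* the r was 0.593. It was 0.873 within Npr1+/- mice (n = 10), 0.483 within Npr1+/+ mice (n = 6) and 0.733 after label, cage and body weight were removed. *Ivd* had an r of 0.861 with *Mccc1* and of 0.882 with *Mccc2*, and these are descriptive because the pairs were picked after their values were seen. In replicate 10 labelled Npr1+/- all 3 were at or next to their lowest (*Ivd* 98.7, *Mccc1* 22.6 and *Mccc2* 38.5 CPM). Replicate 9 of the same label was the lowest for *Ivd* (97.5 CPM), next to lowest for *Mccc1* (25.4 CPM) and the third lowest for *Mccc2* (42.5 CPM). With the length slope removed from each gene, the r was 0.719 for *Ivd* and *Mccc1*, 0.913 for *Ivd* and *Mccc2* and 0.813 for *Mccc1* and *Mccc2*, so each pair kept a positive r. Within labels the r of *Ivd* and *Mccc1* was 0.958 in Npr1+/- mice but 0.157 in the 6 Npr1+/+ mice, and that of *Ivd* and *Mccc2* was 0.907 and 0.812. The difference between labels was not tested.

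The promoters of these 3 genes are shown because the genes varied together. RefSeq promoters on GRCm38.p6, from 250 bases before to 50 bases after the start, were found for 9 of the 10 members, 11 in all, since *Bcat2* and *Bckdhb* have 2 each. Each was searched on both strands for 7 short motifs. Near the start these were the GC box with the letters GGGCGG, the CCAAT box with the letters named in it, and the TATA box written as TATAAA. The motifs of factors that act on mitochondrial or nutrient genes were an NRF1-like palindrome, the ERR element with the letters AAGGTCA, the cyclic AMP element (CRE) read as TGACGTCA and the E-box spelled CACGTG. Capitals mark every match, ATTGG being CCAAT on the other strand. *Ivd* is from chr2:118861744-118862043 (plus strand), *Mccc1* from chr3:36000629-36000928 (minus) and *Mccc2* from chr13:100015590-100015889 (minus), each written 5′ to 3′ along the gene.
Ivd: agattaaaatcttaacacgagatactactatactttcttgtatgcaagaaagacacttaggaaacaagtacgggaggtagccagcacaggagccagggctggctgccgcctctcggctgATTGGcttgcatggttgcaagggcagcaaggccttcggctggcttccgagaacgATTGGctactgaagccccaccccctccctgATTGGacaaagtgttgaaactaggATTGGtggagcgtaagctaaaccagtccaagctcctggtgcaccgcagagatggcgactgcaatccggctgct
Mccc1: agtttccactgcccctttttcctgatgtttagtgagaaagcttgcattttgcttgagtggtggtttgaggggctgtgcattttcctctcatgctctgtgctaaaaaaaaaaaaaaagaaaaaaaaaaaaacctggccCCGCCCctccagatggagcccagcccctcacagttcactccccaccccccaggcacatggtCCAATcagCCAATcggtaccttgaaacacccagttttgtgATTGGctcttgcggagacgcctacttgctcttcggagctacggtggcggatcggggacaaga
Mccc2: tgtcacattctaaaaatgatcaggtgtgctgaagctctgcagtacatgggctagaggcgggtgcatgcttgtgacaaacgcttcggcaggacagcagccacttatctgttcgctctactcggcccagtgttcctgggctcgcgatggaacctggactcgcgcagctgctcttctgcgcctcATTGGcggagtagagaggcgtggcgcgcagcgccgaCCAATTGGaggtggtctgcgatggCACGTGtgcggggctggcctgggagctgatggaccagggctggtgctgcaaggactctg
The CCAAT box occurred 4 times in the *Ivd* promoter and 3 times each in those of *Mccc1* and *Mccc2*, where 2 of the matches overlap in *Mccc2*. Of 32851 promoters of this length, 37.4% hold at least 1 CCAAT and 3.37% hold 3 or more. Of the 11 promoters of members, 7 held a CCAAT box and 4 a GC box, which 35.7% of all promoters hold. No NRF1-like, ERR or CRE match was in these windows. These are matches of letters, not measured binding.

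Within the BCKDH complex, *Bckdha* and *Dbt* had a Pearson r of -0.744 (permutation p = 0.00036, adjusted 0.00168) and a Spearman rho of -0.762 (permutation p = 0.0010, adjusted 0.00432). The r was -0.708 without the 2 mice farthest from the median of *Bckdha*, -0.745 within Npr1+/- mice, -0.921 within Npr1+/+ mice and -0.876 after label, cage and weight. With the length slope alone removed it was -0.581, with label, cage, weight and length slope removed -0.766, and it was -0.659 without the 3 libraries of highest slope. The ratio of *Bckdha* to *Dbt* per length thus spread from 4.19 to 23.8 between mice. The other 4 pairs did not pass after adjustment, with r of -0.254 for *Bckdha* and *Bckdhb*, 0.319 for *Bckdhb* and *Dbt*, -0.415 for *Bckdk* and *Ppm1k* and 0.253 for *Bcat2* and *Bckdha* (lowest adjusted permutation p 0.223 for r and 0.0985 for rho, the latter for *Bckdhb* and *Dbt*). For *Bckdha* and *Bckdhb* the r was 0.129 without replicate 9 labelled Npr1+/-.

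**Figure D4:**
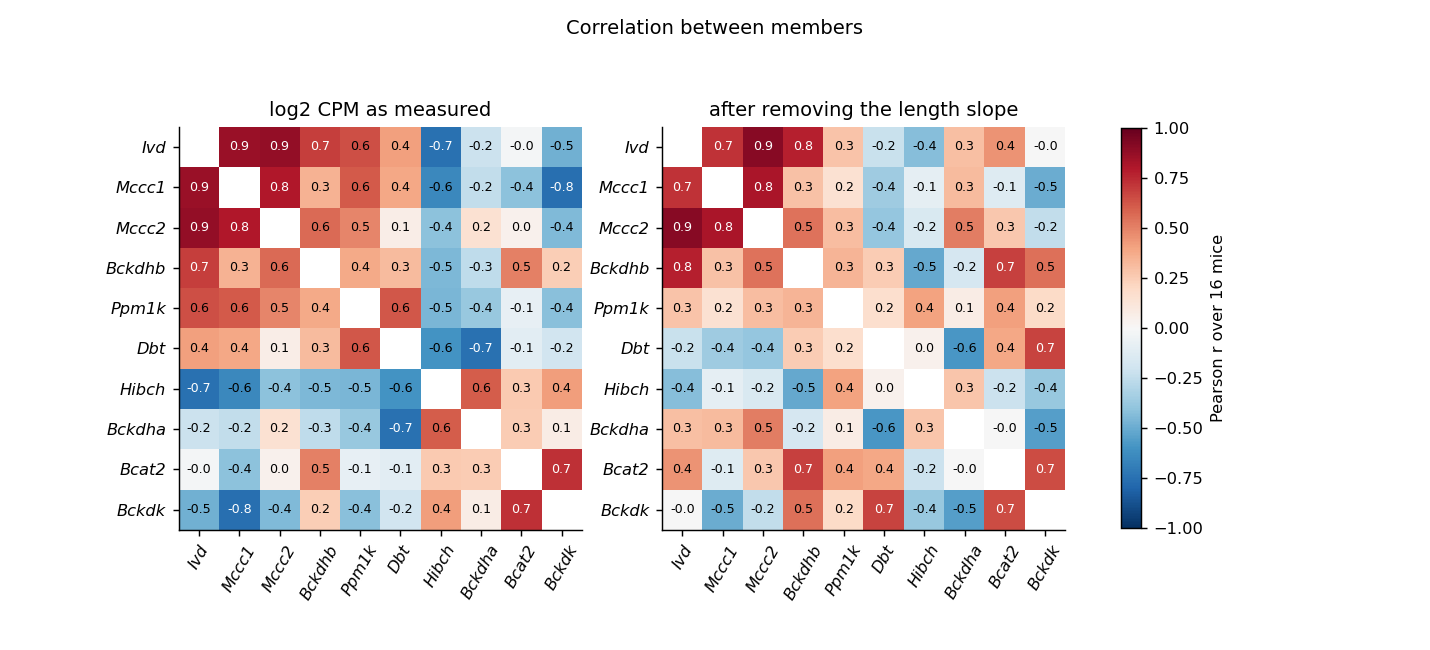
Pearson r between all pairs of the 10 genes over 16 mice (red positive, blue negative), on log2 CPM as measured (left) and after the length slope of the libraries was removed from each gene (right). Of 45 pairs, 13 have an absolute r over 0.6 on the left and 7 on the right, against 21.3% and 9.08% of all pairs of tested genes. The block of *Ivd*, *Mccc1* and *Mccc2* is red in both.

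Several members moved with the length slope. Over the 16 libraries its r was 0.745 with *Dbt*, 0.735 with *Ppm1k*, 0.737 with *Mccc1* and 0.692 with *Ivd*, and -0.827 with *Hibch* and -0.691 with *Bckdk*. It was nearer 0 for *Mccc2* (0.402) and *Bckdhb* (0.206). An absolute r over 0.6 was found for 6 of 10 members and for 49.4% of all tested genes, and both quantities come from the same libraries. The sign did not follow the length of the member alone, since *Hibch* (6059 bases) and *Ppm1k* (6022 bases) had opposite signs. Summed cell type markers differed between libraries as well, from 141 to 560.4 CPM for 5 endothelial genes and from 50626 to 134352 CPM for 8 fast fiber genes in Npr1+/- mice, and from 176 to 232 and from 53098 to 84596 CPM in Npr1+/+ mice. Slow fiber genes ran from 171 to 327 and from 216 to 337 CPM, adipocyte genes from 214 to 560.5 and from 223 to 534 CPM, macrophage genes from 32.6 to 136 and from 60.3 to 109 CPM and erythrocyte genes from 88.0 to 509.7 and from 192 to 320.1 CPM. *Myh7*, the slow myosin heavy chain, was at 0 in at least 1 library, and no other marker was. The part of these cell types in the values above was not tested.

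**Figure D5:**
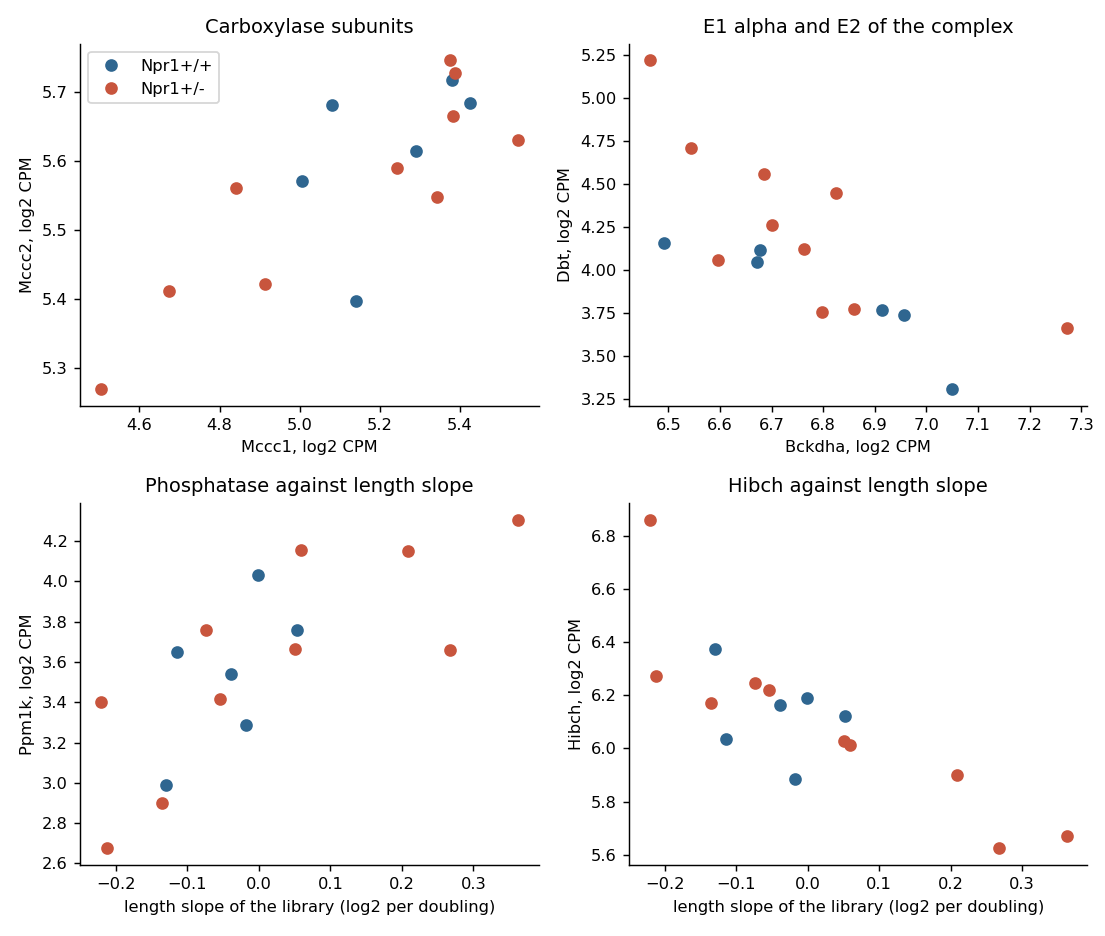
Each point is 1 mouse, Npr1+/+ in blue and Npr1+/- in red. Top, log2 CPM of *Mccc1* against *Mccc2* (r 0.799) and of *Bckdha* against *Dbt* (r -0.744). Bottom, length slope of the library against *Ppm1k* (r 0.735) and *Hibch* (r -0.827), with the 3 highest slopes in Npr1+/- mice.

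The genes most alike to each member over the 16 libraries were found by Pearson r of log2 CPM, as a description. The length slope was not removed here, and its part in these r was not tested. *Bckdk* was closest to *Mbd3* (r 0.987), *Nabp2* (0.983) and *Rpl8* (0.977), and *Hibch* to *Osgepl1* (0.981), *Cetn3* (0.969) and *Kbtbd3* (0.969). *Mccc2* was closest to a fellow member, *Ivd* (0.882), then *Atp6ap1* (0.864) and *Pkm* (0.857). *Ivd* was closest to *Nmt1* (0.934), *D2hgdh* (0.912) and *Ppp6r1* (0.894), and *Mccc1* to *Selenoi* (0.950), *Las1l* (0.945) and *Tax1bp1* (0.941). *Dbt* was closest to *Gm37829* (0.947), *Cog7* (0.942) and *Fbxl17* (0.941), and *Ppm1k* to *Lnpep* (0.941), *Asxl2* (0.940) and *Rc3h1* (0.933). *Bcat2* followed *Agtrap* (0.927), *Trub2* (0.879) and *Flot1* (0.868), *Bckdha* followed *Egfl7* (0.911), *Pick1* (0.906) and *Aldh16a1* (0.900), and *Bckdhb* followed *Dglucy* (0.853), *Eif4b* (0.830) and *Dolpp1* (0.829). With *Ivd* beside *Mccc2* as the exception, none of these nearest genes is a member.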

How the data were processed

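Skeletal muscle RNA of 16 mice was sequenced, 1 library per mouse. The authors mapped reads to GRCm38 with STAR 2.7.2b and the GENCODE M24 gene model, counted fragments with both ends aligned with featureCounts (1.6.4 in the submitters' processing notes), and deposited raw counts per gene with a gene length. The study's methods name a stranded library kit and the labels another kit, and the strand setting of the counting is not given in the sources used here. Antisense genes that overlap members, such as *B3gnt8* in *Bckdha* (817 against 40344 counts), could not be told apart without strand. Symbols were paired with 55144 of 55471 genes.

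Genotype, cage and body weight came from the labels. Genes were filtered with filterByExpr, scaled with TMM and tested over all 14331 genes with edgeR 4.0.16 (glmQLFit, robust = TRUE, legacy = TRUE, R 4.3.3) on label, cage and body weight, as in the study's methods, with Benjamini-Hochberg adjustment at 0.05. Standard errors are the log2 fold change divided by the root of its F statistic, and 95% intervals use the total (residual plus prior) degrees of freedom of the fit. No sample was dropped. Log2 CPM used a prior count of 2, and correlations were tested two-sided with 100000 permutations (scipy 1.17.1). Totals cover counting error only. The steps were tested on simulated data. DESeq2 1.42.0, limma 3.58.1, other covariates, scalings and filters, and leaving out each mouse were alternatives, and the length slope was added after seeing the data. The members, lists and pairs were chosen with earlier results of these data known. All members are named, with the 3 further pathway genes of smallest p, *Dld*, *Slc25a44*, *Bcat1*, 3 regulators, 5 genes of sister complexes and the 3 most alike genes per member.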

Additional observations from a re-analysis of the deposited data

Results flagged for a closer look

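Of 20 groups, each the mice of 1 label at 1 member, 2 held a mouse that stood well apart from its label. Chance alone marks about 1 in 20 such groups. Both concern replicate 9 labelled Npr1+/-, which was highest of its label for *Bckdha* at a log2 CPM of 7.27 (154 CPM, next value 116) and for *Hibch* at 6.86 (116 CPM, next value 77.2). This library also had the lowest length slope of all 16 (-0.220), the highest erythrocyte sum (509.7 CPM) and the highest macrophage sum (136 CPM), and their part in the high values was not tested.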

How the results depend on the processing

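With all 16 mice and both covariates, 0 genes, and 0 members for label, body weight or cage, passed. Of 13 other settings and 16 fits that left out 1 mouse, none called a member for the label (lowest adjusted p of any member 0.578, with the replicate block). Cage and body weight were each tested in 7 of these settings and in the 16 fits, and no member was called for cage. Genes called for the label were 2 with the replicate block in place of cage, 6 with DESeq2, 8 without a filter on low counts, 2 with the length slope added, 1 without the 3 libraries of highest length slope and 0 to 3 with 1 mouse left out. Members called for body weight were 0 to 2 with 1 mouse left out (2 without replicate 3 labelled Npr1+/-) and 0 in the 7 settings. Signs of member log2 fold changes turned in 13 of 130 other fits and 10 of 160 that left out 1 mouse. On the label alone they were -0.040 for *Bckdha*, 0.026 for *Bckdk* and 0.12 for *Ppm1k*. With cage only they were -0.075 for *Bckdha*, 0.15 for *Ppm1k*, 0.037 for *Mccc1* and -0.066 for *Hibch*. With body weight only they were -0.027 for *Bckdha* and 0.039 for *Bckdk*. With the replicate block they were -0.089 for *Bckdha*, 0.019 for *Ppm1k* and -0.13 for *Hibch*, and scaled by library size only -0.0057 for *Bckdha*. With 1 mouse left out, values ran from -0.26 to -0.050 for *Bcat2*, -0.040 to 0.075 for *Bckdha*, -0.17 to 0.22 for *Dbt*, -0.14 to 0.059 for *Bckdk*, -0.33 to 0.079 for *Ppm1k*, -0.0032 to 0.17 for *Hibch*, -0.26 to -0.13 for *Bckdhb*, -0.28 to -0.13 for *Ivd*, -0.21 to -0.019 for *Mccc1* and -0.12 to -0.042 for *Mccc2*. On the label alone *Ivd* was at -0.055 and *Bckdhb* at -0.060. The r of *Bckdha* and *Bckdhb* turned to 0.306 without the 2 farthest mice and ran from -0.454 to 0.129 with 1 mouse left out. With label, cage, weight and length slope removed, it was 0.205 for *Bckdk* and *Ppm1k* and -0.269 for *Bcat2* and *Bckdha*. With 1 mouse left out it ran from 0.226 to 0.545 for *Bckdhb* and *Dbt* and from -0.557 to -0.232 for *Bckdk* and *Ppm1k*. The causes were not tested.

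The labels give no pairing of same-numbered mice. Their deviations correlated at 0.0328 to 0.170 over 6 pairs, with a mean of 0.0779, against a mean of -0.00816 over 54 pairs of different numbers. Of 6 Npr1+/- mice, 2 matched their own number best.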

Other observations

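The pyruvate and 2-oxoglutarate dehydrogenases share the E3 subunit and the architecture of the BCKDH complex, and their genes form a point of comparison. None of 13 such genes passed the test between labels, and 10 had a log2 fold change below 0, with a median of -0.06. *Pdha1*, *Pdhb* and *Dlat*, the core of the pyruvate complex, had log2 fold changes of -0.06, -0.05 and -0.04, and *Pdk4* and *Pdp1*, a kinase and a phosphatase of that complex, had -0.09 and 0.05, with an adjusted p of 0.999994 each in edgeR. Per length, *Pdha1* (219 RPKM), *Pdhb* (147 RPKM) and *Pdk4* (506 RPKM) had means above each of the 10 BCAA genes. *Dlat* (76.1 RPKM) was below *Bckdk*, and *Pdp1* (30.0 RPKM) was below *Bckdk* and *Bckdha*.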
